A study of Mus musculus with 15 samples.

Results

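The 8 genes described here are a set of extracellular, cytoplasmic and nuclear regulators of Wnt signalling: Sfrp5, Wif1, Notum, Apcdd1, Axin2, Nkd1, Lef1 and Tcf7. They are 8 of the 45706 genes listed for every library and were matched by gene symbol. The set was chosen from a measured value, the lower level of Sfrp5 in SRF-KO oligodendrocytes (OLs) than in control OLs. The values of all 8 genes in that comparison are therefore given as a description, without a test. The rule of choice did not use the comparison in oligodendrocyte precursor cells (OPCs), and the genes with enough counts were tested there. Earlier results of these data were known when the genes were chosen.

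Wnt proteins are secreted ligands that bind Frizzled receptors and LRP co-receptors at the cell surface. In the canonical branch this stops a cytoplasmic complex built on Axin and APC from destroying beta-catenin, which then enters the nucleus and works with DNA-binding proteins of the TCF/LEF family. Several target genes code for inhibitors of the same pathway, Axin2 and Notum among them, which makes a negative feedback loop. In the oligodendrocyte lineage strong canonical Wnt signalling is known to hold back the maturation of precursors, and the TCF/LEF family member Tcf7l2 is known to take part in that maturation.

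All cultures were started from OPCs that had been immunopanned from the brains of mice homozygous for floxed Srf alleles, so treated and control cells carried the same alleles. Srf codes for serum response factor, a DNA-binding protein that acts with its cofactors on cytoskeletal and immediate early genes. Cells of the 3 SRF-KO OPC libraries received the adeno-associated virus AAV DJ-CMV eGFP-cre on day 3. Those of the 4 control OPC libraries received the matching virus with a deleted cre. OPCs were frozen 48 hours after infection. Cells of the 4 SRF-KO OL libraries were infected on day 6 with a lentivirus-CRE-IRES-GFP, and those of the 4 control OL libraries with a GFP lentivirus. Both were frozen on day 3 of differentiation. No group received Cre without floxed alleles, so the effect of Cre itself and that of losing Srf cannot be told apart. Nothing in the labels says that the replicates came from separate animals or cultures, so p-values measure only the spread between these libraries, which may be technical.

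Libraries were unstranded polyA libraries made by Smart-seq2, a full-length cDNA protocol. Total expected counts were 9074812 to 15125229 per library in the SRF-KO OPC group and 8964310 to 16026511 in the control OPC group. In OLs they were 4303739 to 11721394 per SRF-KO library and 7188698 to 13139258 per control library. Unless a unit is given, levels are CPM, a library's count scaled to a common total, after scaling by the trimmed mean of M-values (TMM) within a stage. The OPC files list gene lengths that equal the spliced length, and the OL files list lengths that equal the genomic span, in 90.3% and 90.5% of 8938 genes with introns and 1 transcript. OL counts may therefore hold intron reads that OPC counts do not, and OPC and OL levels are set side by side below without a test. SRF-KO OL replicate 4 stood apart from the other SRF-KO OLs, with a chi-square per gene of 36.3 to 54.3 against them, where those 3 differed from each other by 7.51 to 11.6. Control OL replicate 4 also stood apart, at 22.2 to 42.7 against the other control OLs, which differed from each other by 10.3 to 14.5.

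Srf itself followed the labels. It stood at 0.221, 0.196 and 0.215 CPM in the 3 SRF-KO OPC libraries, against 7.90, 5.57, 9.65 and 8.33 CPM in the 4 control OPC libraries. The log2 fold change was -5.16 ± 0.40 (SE), with an adjusted p of 0.000569 by edgeR's quasi-likelihood test. In OLs Srf stood at 3.07, 2.67, 2.09 and 4.39 CPM in the SRF-KO libraries, against 7.93, 8.73, 9.30 and 7.11 CPM in the control libraries. The groups did not overlap, and SRF-KO OLs kept 36.7% of the control level, a log2 fold change of -1.45 ± 0.22 (SE) with an edgeR adjusted p of 0.0224. The myelin genes followed the stage names, and the OPC markers did so in part. In OLs the sum of 10 myelin genes was 13900 to 19900 CPM in SRF-KO and 20300 to 38700 CPM in control libraries, and in OPCs 475 to 515 CPM in SRF-KO and 431 to 465 CPM in control libraries. Of the OPC markers, Pdgfra, Cspg4 and Ptprz1 had fewer CPM in control OLs than in control OPCs. C1ql1 (111 against 10.5), Gpr17 (296 against 19.5) and Lhfpl3 (479 against 235) had more. In TPM, Lhfpl3 had less in control OLs (4.46 against 122), and C1ql1 (33 against 11.8) and Gpr17 (96.4 against 5.41) had more. Because OL counts may hold intron reads and OL lengths are genomic spans, none of these directions is read as a change with stage.

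Sfrp5 codes for a secreted frizzled-related protein, which carries a cysteine-rich domain like that of the Frizzled receptors and binds Wnt ligands outside the cell. The gene (ENSMUSG00000018822) lies at chr19:42197971-42202252 on the minus strand of GRCm38, has 1 annotated transcript of 3 exons and overlaps no other annotated gene. Its exons cover 1900 of 4282 bases. The window around its start in RefSeq (GRCm38.p6, chr19:42202203-42202502, minus strand) is printed because Sfrp5 carries the largest fold change among the 5 genes fitted in OLs. Beside it stands the window of the second Tcf7 start (chr11:52282546-52282845, minus strand), because Tcf7 carries the largest among the 5 fitted in OPCs and because this window holds a CArG box, the element that serum response factor binds, in capitals.
Sfrp5: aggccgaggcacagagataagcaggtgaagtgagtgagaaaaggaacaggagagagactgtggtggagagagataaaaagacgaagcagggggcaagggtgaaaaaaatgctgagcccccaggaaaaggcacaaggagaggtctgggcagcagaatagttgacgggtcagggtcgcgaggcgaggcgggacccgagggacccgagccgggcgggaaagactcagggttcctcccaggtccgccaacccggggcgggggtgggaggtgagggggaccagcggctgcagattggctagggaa
Tcf7: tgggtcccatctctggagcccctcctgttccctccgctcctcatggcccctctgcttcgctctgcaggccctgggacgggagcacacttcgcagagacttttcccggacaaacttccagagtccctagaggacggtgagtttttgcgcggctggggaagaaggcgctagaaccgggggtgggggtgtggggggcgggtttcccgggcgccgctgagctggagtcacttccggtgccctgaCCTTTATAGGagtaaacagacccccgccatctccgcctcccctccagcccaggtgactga
Each window runs from 250 bases before to 50 bases after the start. RefSeq windows were at hand for 6 of the 8 genes. No window of these 6 genes held either of 2 letter strings that TCF/LEF proteins bind, CTTTGAT and CTTTGAA, searched on both strands; 8.65% of the 32851 windows of all genes held at least 1 of them. The CArG box was found in 1.63% of all windows. Among the 6 genes it stood once in the second Tcf7 window, from base 241, and once in the third Lef1 window (chr3:131112541-131112840), from base 151. The first Tcf7 window and the other Lef1 windows held none. The share of 1.63% is per window, and Tcf7 and Lef1 had more than 1 window each. A match of letters is a description and shows no binding, and the Sfrp5 window held none of these strings.

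Sfrp5 was listed at 0 counts in all 3 SRF-KO OPC and all 4 control OPC libraries. A count of 0 allows up to 0.198 to 0.331 CPM in the SRF-KO OPC libraries and 0.187 to 0.335 CPM in the control OPC libraries (3 counts of the library total, counting error only). In OLs it was counted in every library. SRF-KO OL replicates 1 to 4 had 135, 167, 72 and 108 counts, or 11.4, 13.3, 14.8 and 20.3 CPM. Control OL replicates 1 to 4 had 355, 449, 238 and 444 counts, or 33.0, 39.4, 36.4 and 31.0 CPM. The highest SRF-KO library, replicate 4, lay below the lowest control library, so the groups did not overlap.

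The mean Sfrp5 level was 15 ± 3.83 CPM in SRF-KO OLs and 34.9 ± 3.72 CPM in control OLs (SD, n = 4 each). That is 42.3% of the control level, with a log2 fold change of -1.24 ± 0.18 (SE), the value for which the gene was chosen. Of the 15193 genes fitted in OLs, 93 (0.612%) had a fold change as low or lower. This rank describes the value on which the gene was chosen and is no test. With counts pooled over libraries and divided by library sizes, 482 counts in SRF-KO OLs against 1486 in control OLs gave 40.4% of control. As TPM, which also divides by gene length, Sfrp5 ranged from 7.55 to 10.56 in SRF-KO OLs and from 13.67 to 22.2 in control OLs. Without SRF-KO OL replicate 4 the log2 fold change was -1.45, and without control OL replicate 4 it was -1.30. With any 1 library left out it ran from -1.45 to -1.13.

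**Figure D1:**
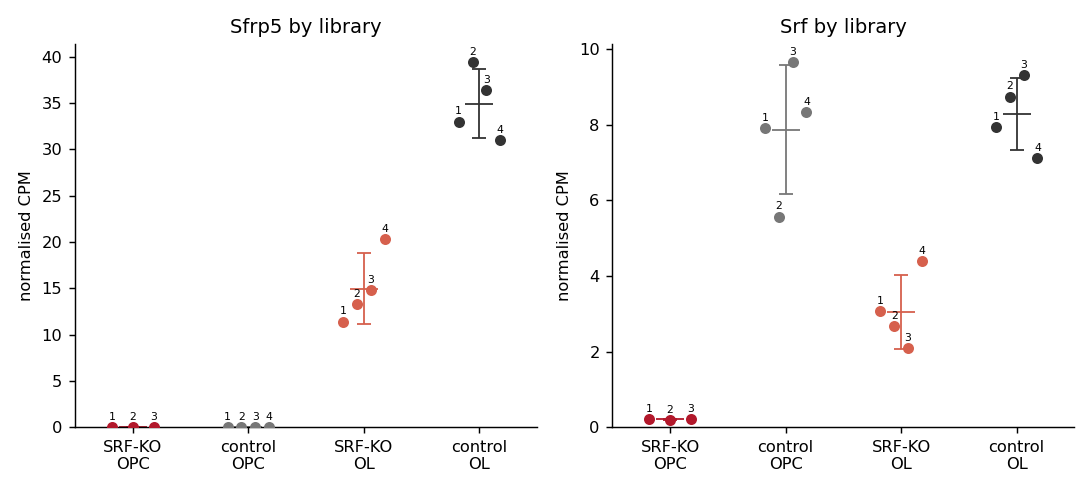
Sfrp5 (left) and Srf (right) in TMM-normalised CPM (y axis, linear) in each library of the 4 groups (x axis); points are libraries with their replicate number, long ticks are means and bars are SD. Sfrp5 sits at 0 in all 7 OPC libraries, and in OLs the 4 SRF-KO libraries (11.4 to 20.3 CPM) lie below the 4 control libraries (31.0 to 39.4 CPM).

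Other OL genes stood lower in the same SRF-KO libraries. The sum of 8 markers of newly formed OLs was 1860 to 2580 CPM in SRF-KO OLs and 3070 to 4430 CPM in control OLs, and 5 of the 8 were lower at an unadjusted p under 0.05, against 5.73% of all genes. Of the 10 myelin genes 9 were fitted, of which 6 were lower at that level, and 1, Opalin, passed the adjusted threshold with a log2 fold change of -1.37 and an adjusted p of 0.0228. The 6 OPC markers summed to 1290 to 1490 CPM in SRF-KO and 1380 to 1430 CPM in control OLs. At an unadjusted p under 0.05 Pdgfra and Ptprz1 were higher in SRF-KO OLs and C1ql1 lower. The sum of 8 astrocyte genes, most of it Gfap, was 9020 to 14200 CPM in SRF-KO OLs and 17300 to 34700 CPM in control OLs. Gfap was the only 1 of the 8 that was lower at an unadjusted p under 0.05. Without Gfap the sum was 4250 to 5220 CPM in SRF-KO and 5030 to 6500 CPM in control OLs, with overlap. In bulk cultures fewer cells of a type and less RNA per cell cannot be told apart. The part of these shifts in the Sfrp5 difference was not tested; the ratios below give the Sfrp5 level relative to them.

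Per 1000 CPM of the 10 myelin genes, Sfrp5 stood at 0.728, 0.667, 0.823 and 1.46 in SRF-KO OL replicates 1 to 4. The control OL replicates 1 to 4 stood at 0.851, 1.35, 1.45 and 1.52. On this scale the groups overlapped, through SRF-KO replicate 4 and control replicate 1. Per 1000 CPM of the 8 newly formed OL markers the SRF-KO values were 4.52, 5.16, 5.99 and 10.9, and the control values 7.45, 10.2, 10.5 and 10.1, here with SRF-KO replicate 4 above every control library. Per 1000 CPM of Gfap, the intermediate filament of astrocytes, the SRF-KO values were 1.31, 1.48, 1.99 and 4.26 and the control values 1.17, 2.30, 2.10 and 2.53, so that the ranges overlapped. Per 1000 CPM of the 7 other astrocyte genes Sfrp5 stood at 2.37, 2.55, 3.09 and 4.78 in SRF-KO OLs and 5.08, 7.03, 6.49 and 6.15 in control OLs, without overlap. Per 100 CPM of Srf, Sfrp5 stood at 371, 497, 706 and 463 in SRF-KO OLs and at 416, 451, 391 and 435 in control OLs, so that the control values lay within the SRF-KO range.

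**Figure D2:**
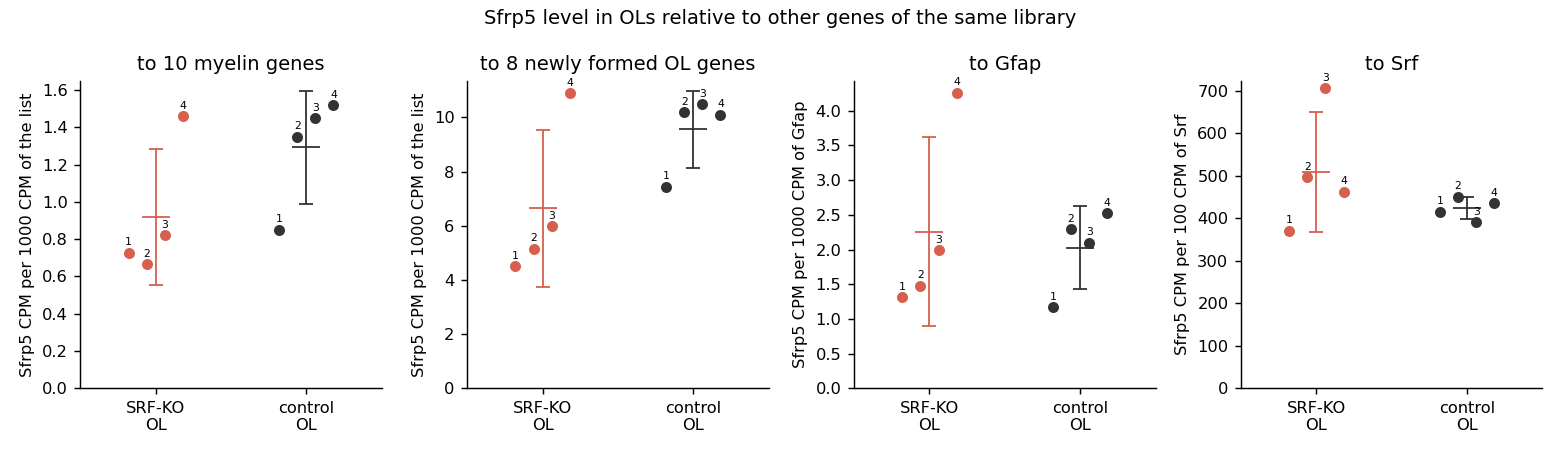
Sfrp5 CPM in each OL library divided by the CPM of 10 myelin genes, 8 newly formed OL markers, Gfap and Srf (y axes, per 1000 or per 100 CPM; x axis, group); points are libraries with replicate numbers, ticks means and bars SD. The SRF-KO and control libraries overlap on all 4 scales, and SRF-KO replicate 4 lies highest among the SRF-KO libraries on the first 3.

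Markers of the other cell types that such a culture could hold stayed below the myelin sums in OLs. Endothelial markers summed to 8.98 to 11.9 CPM in SRF-KO and 6.85 to 9.31 CPM in control OLs, with Cldn5, the tight junction claudin of brain endothelium, at 0 in all 8 libraries. Fibroblast and mural markers summed to 40.2 to 74.7 CPM in SRF-KO and 38.6 to 53.5 CPM in control OLs, microglial markers to 10.1 to 14.9 and 9.10 to 13.9 CPM, and neuronal markers to 111 to 184 and 127 to 157 CPM. Most of the fibroblast and mural sum was Acta2 (mean 46.2 CPM in SRF-KO and 39.7 in control OLs). Most of the neuronal sum was Tubb3 (127 and 135 CPM). Both sums lay above the Sfrp5 level in each OL library, and which cells carry Sfrp5 was not tested. T cell markers summed to 0 to 0.254 CPM in SRF-KO and 0.153 to 0.439 CPM in control OLs. Of these 5 lists 1 fitted gene, the neuronal Snap25, had an unadjusted p under 0.05 (3.41 ± 0.893 CPM in SRF-KO and 1.90 ± 0.532 CPM in control OLs, SD, n = 4 each), and none passed after adjustment.

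Among the 9407 better expressed named genes in OLs, the level of Opalin followed that of Sfrp5 most closely over the 8 libraries, with a Pearson r of 0.98 on log2 CPM. Opalin codes for a membrane glycoprotein of myelinating OLs. The 4 SRF-KO OL libraries had 4.56, 4.54, 4.93 and 8.28 CPM of it and the 4 control OL libraries 15.4, 14.8, 14.5 and 11.4 CPM, in replicate order. Close to it also came Triobp, an actin-bundling protein (r = 0.96), Pnmal2 (0.95) and the actin-binding calponin Cnn2 (0.94). Triobp averaged 13.4 ± 1.10 CPM in SRF-KO and 16.9 ± 1.22 CPM in control OLs, Pnmal2 20.1 ± 1.53 and 24.8 ± 1.89, and Cnn2 25.6 ± 5.26 and 39.7 ± 6.10 (SD, n = 4 each). These r values describe likeness only: the 8 libraries fall into 2 groups, and the difference between the groups enters each r.

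Wif1 and Notum code for the other secreted inhibitors of the set. Wif1 (ENSMUSG00000020218, chr10:121033960-121100650, plus strand) codes for Wnt inhibitory factor, which binds Wnt ligands directly. It stood at 1.88, 2.81 and 1.93 CPM in the SRF-KO OPC libraries (17, 43 and 18 counts), against 0.820, 1.64, 1.21 and 0.944 CPM in the control OPC libraries (11, 26, 11 and 11 counts). Every SRF-KO library lay above every control library. The log2 fold change was 0.93 ± 0.42 (SE), with an unadjusted p of 0.0475 and an edgeR adjusted p of 0.415, so the difference did not pass the test. In OLs Wif1 had 1 to 10 counts per library, at 0.188 to 0.796 CPM in SRF-KO and 0.0697 to 0.439 CPM in control OLs, too few to be fitted.

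Notum (ENSMUSG00000042988, chr11:120653788-120661175, minus strand) codes for an extracellular enzyme that removes the lipid from Wnt proteins. It was close to absent from the counts. SRF-KO OPC replicate 1 had 3 counts and the other 2 SRF-KO OPC and all 4 control OPC libraries had 0, while OL libraries of both groups had 0 to 2. The gene overlaps the antisense genes Myadml2os and Notumos, and in unstranded libraries reads of such partners cannot be told apart. No fold is given at these counts.

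Apcdd1 (ENSMUSG00000071847, chr18:62922231-62961179, plus strand) codes for a membrane glycoprotein that binds Wnt ligands and LRP5 and inhibits the pathway upstream of beta-catenin. In OPCs it stood at 2.76, 2.88 and 2.36 CPM in SRF-KO and 3.35, 1.77, 1.32 and 3.26 CPM in control libraries. The SRF-KO values lay within the control range, and the log2 fold change was 0.13 ± 0.40 (SE) with an edgeR adjusted p of 0.919. In OLs it stood at 17.2, 17.5, 15.8 and 10.2 CPM in SRF-KO replicates 1 to 4 and at 26.2, 17.3, 28.1 and 22.2 CPM in control replicates 1 to 4. The groups met at control replicate 2, and the means were 15.2 ± 3.43 CPM in SRF-KO and 23.4 ± 4.79 CPM in control OLs (SD, n = 4 each). The log2 fold change in OLs was -0.60 ± 0.20 (SE), or 65.9% of control, given without a test; 3.58% of all fitted genes had a value as low or lower. Unlike Sfrp5, Apcdd1 was lowest in SRF-KO replicate 4, the library in which Sfrp5 was highest within its group.

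Axin2 (ENSMUSG00000000142, chr11:108920349-108950783, plus strand) codes for an Axin scaffold of the beta-catenin destruction complex and is a widely used target gene of the pathway. In OPCs it stood at 3.75, 3.79 and 3.75 CPM in SRF-KO libraries (34, 58 and 35 counts) and at 2.31, 3.10, 2.41 and 2.32 CPM in control libraries (31, 49, 22 and 27 counts). The 3 SRF-KO libraries lay above all 4 control libraries. The log2 fold change was 0.56 ± 0.29 (SE), with an unadjusted p of 0.0769 and an edgeR adjusted p of 0.462, and did not pass the test. Pooling gave 127 SRF-KO against 129 control counts, which after division by library sizes is 146% of control (95% interval 113 to 188%, counting error only). In OLs Axin2 stood at 2.54, 2.01, 0.823 and 4.33 CPM in SRF-KO and 2.61, 2.63, 2.14 and 2.31 CPM in control libraries. The mean was 2.42 CPM in both groups, with an SD of 1.46 in SRF-KO and 0.241 in control OLs (n = 4 each), and the lowest SRF-KO value rested on 4 counts.

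Nkd1 (ENSMUSG00000031661, chr8:88521354-88594884, plus strand) codes for Naked cuticle, which binds Dishevelled in the cytoplasm and dampens the signal. It was the most abundant of the 8 genes in OPCs, at 55.1 to 62.27 TPM in SRF-KO and 63.37 to 69.52 TPM in control OPCs. In CPM it stood at 194, 175 and 189 in SRF-KO OPCs and at 203, 206, 187 and 203 in control OPCs. The groups overlapped, with means of 186 ± 9.72 CPM in SRF-KO (SD, n = 3) and 200 ± 8.61 CPM in control OPCs (SD, n = 4). The log2 fold change was -0.10 ± 0.08 (SE) and the edgeR adjusted p 0.63. In OLs it stood at 21.0, 17.8, 16.6 and 20.9 CPM in SRF-KO and at 21.4, 22.9, 15.4 and 15.5 CPM in control libraries, a log2 fold change of 0.02 ± 0.17 (SE), without a test.

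Lef1 and Tcf7 code for DNA-binding partners of beta-catenin. Lef1 (ENSMUSG00000027985, chr3:131110471-131224356, plus strand) had 3 counts in SRF-KO OPC replicate 2 and 0 in the other SRF-KO OPC and all control OPC libraries. In OLs it had 0.0844 to 0.41 CPM in SRF-KO and 0.182 to 0.564 CPM in control libraries, at no more than 6.4 counts, and was not fitted.

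Tcf7 (ENSMUSG00000000782, chr11:52252371-52283014, minus strand) codes for the family member also called TCF1. It stood at 1.21, 0.915 and 2.47 CPM in SRF-KO OPC replicates 1 to 3 (11, 14 and 23 counts). The control OPC replicates 1 to 4 stood at 5.74, 1.90, 6.03 and 4.38 CPM (77, 30, 55 and 51 counts). Control replicate 2 lay below SRF-KO replicate 3, so the groups overlapped, while the other 3 control libraries lay above every SRF-KO library. The means were 1.53 ± 0.823 CPM in SRF-KO (SD, n = 3) and 4.51 ± 1.89 CPM in control OPCs (SD, n = 4).

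The log2 fold change of Tcf7 in OPCs was -1.57 ± 0.49 (SE), and 30 of the 13271 genes fitted (0.226%) had one as low or lower. Its unadjusted p was 0.00787 and its edgeR adjusted p 0.278, so it did not pass the test; over the alternative settings the adjusted p ran from 0.0766 to 0.529. The 48 SRF-KO counts against 213 control counts in all amount to 33.4% of the control level per library size (95% interval 23.9 to 45.9%, counting error only). In OLs Tcf7 stood at 2.83, 2.89, 2.37 and 1.47 CPM in SRF-KO and 3.10, 1.49, 1.77 and 2.56 CPM in control libraries, with full overlap of the groups and a log2 fold change of 0.13. The OL value is uncertain, because the gene Gm26551 overlaps Tcf7 on the same strand and had 45.1 to 159.6 counts in SRF-KO and 52.8 to 203.4 counts in control OLs, against 0 to 2 in OPCs.

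**Figure D3:**
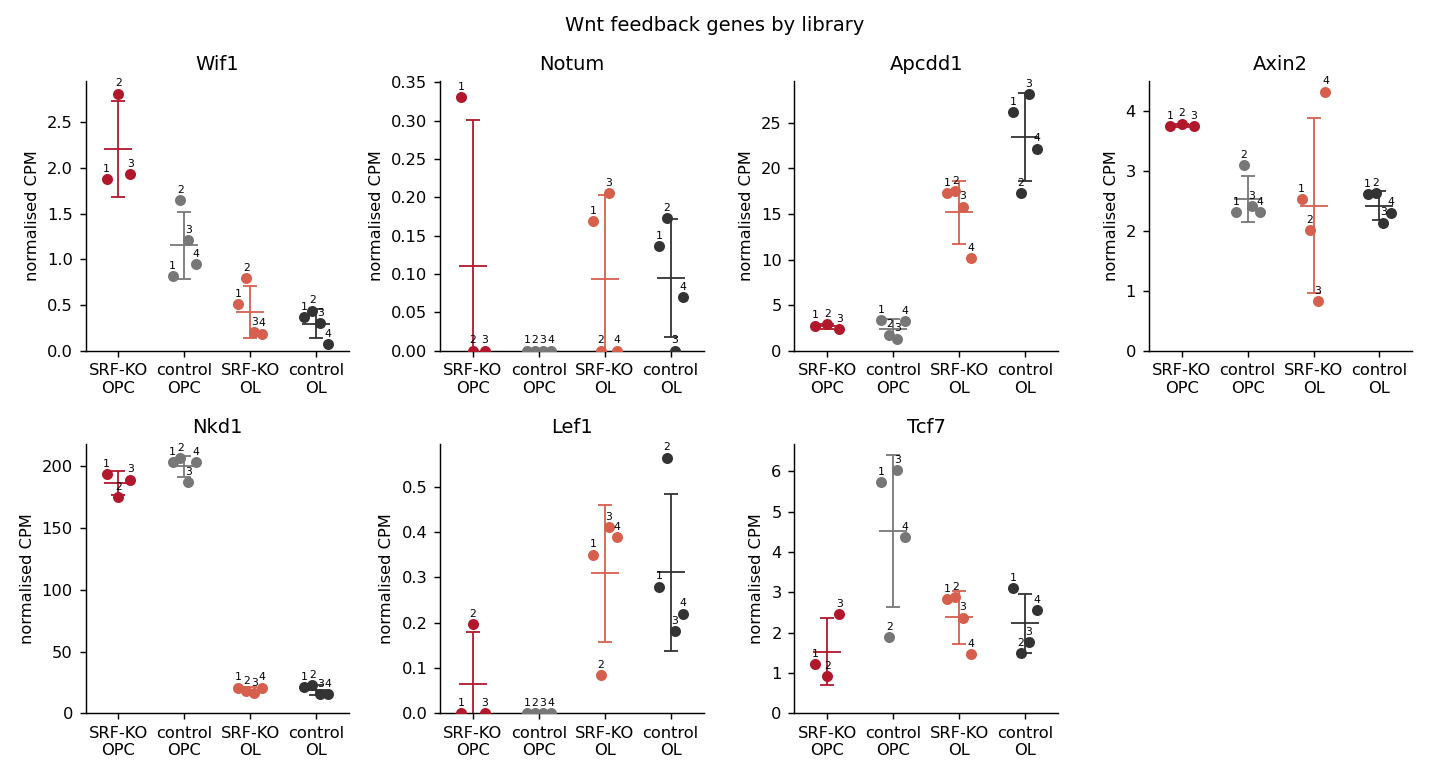
TMM-normalised CPM (y axis, linear, own scale in each panel) of the 7 genes other than Sfrp5 in each library of the 4 groups (x axis); points are libraries with replicate numbers, ticks means and bars SD. Wif1 and Axin2 lie higher in every SRF-KO OPC library than in any control OPC library, Tcf7 lies at 0.915 to 2.47 CPM in SRF-KO and 1.90 to 6.03 CPM in control OPCs, and Notum and Lef1 stay under 0.6 CPM in all libraries.

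In OPCs 5 of the 8 genes had enough counts to be fitted: Wif1, Apcdd1, Axin2, Nkd1 and Tcf7. None of the 5 passed an adjusted p of 0.05 with edgeR, where 0.0678% of all 13271 genes did (9 genes). DESeq2 gave an adjusted p for 3 of them, Axin2, Nkd1 and Tcf7, and none of these 3 passed. At an unadjusted p under 0.05 there were 2, Wif1 and Tcf7, against 11.9% of all genes. The groups did not overlap for 2 of the 5, Wif1 and Axin2, against 12.2% of all genes. Those 3 genes had 11 to 77 counts per library, which limits the precision of these values.

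Of all 13271 genes fitted in OPCs, 739 were higher and 840 lower in SRF-KO at an unadjusted p under 0.05. Of 8 astrocyte genes 5 were higher at that level, Aqp4 among them (30.1 ± 3.91 CPM in SRF-KO, n = 3, and 17.6 ± 3.57 CPM in control OPCs, n = 4, SD). At the same level 1 was lower, Sox9, a transcription factor gene (415 ± 39.5 CPM in SRF-KO, n = 3, and 529 ± 43.7 CPM in control OPCs, n = 4, SD), and none of the 8 passed after adjustment. The sum of all 8 was 1790 to 1960 CPM in SRF-KO and 1660 to 1760 CPM in control OPCs. OPC markers summed to 2060 to 2330 CPM in SRF-KO and 2090 to 2430 CPM in control OPCs, newly formed OL markers to 599 to 709 and 684 to 777 CPM, neuronal markers to 37.1 to 47.5 and 41.8 to 49.5 CPM, and fibroblast and mural markers to 2.87 to 6.74 and 1.86 to 7.75 CPM. Endothelial, microglial and T cell markers each summed to less than 2 CPM in every OPC library, with Cldn5 and the microglial Cx3cr1 at 0 in all 7. The part of these levels in the Wif1, Axin2 and Tcf7 values was not tested.

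In OLs 5 of the 8 were fitted as well, with Sfrp5 in place of Wif1. Of these 5, Sfrp5 was without overlap between the groups, where 8.01% of all 15193 genes were. Since the set was chosen on that comparison, nothing is read from this count.

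On the TPM scale, which divides by gene length, the most abundant of the 8 genes was Nkd1 in OPCs and Sfrp5 in OLs. In SRF-KO OPCs Nkd1 (mean 59.7 TPM) stood far above Axin2 (1.99), Wif1 (1.56), Apcdd1 (1.36) and Tcf7 (1.01). In control OPCs Nkd1 (mean 67.5 TPM) was followed by Tcf7 (2.90), Axin2 (1.68), Apcdd1 (1.29) and Wif1 (0.918), and the other 3 were listed at 0. In both groups the ranges of the genes below Nkd1 overlapped from 1 neighbour to the next. In OLs Sfrp5 led with 9.28 ± 1.29 TPM in SRF-KO and 18.0 ± 3.58 TPM in control libraries (SD, n = 4 each). Apcdd1 followed at 1.36 TPM in SRF-KO and 1.68 TPM in control OLs, then Axin2 at 0.84 and 0.888 TPM and Nkd1 at 0.735 and 0.56 TPM. In CPM Nkd1 stood above both Apcdd1 in SRF-KO OLs and Axin2 in SRF-KO and control OLs, so this order rests on division by the genomic span. So does the lead of Sfrp5 in SRF-KO OLs, where the mean CPM was 19.1 for Nkd1, 15.2 for Apcdd1 and 15 for Sfrp5. In control OLs Sfrp5 led in CPM as well, at 34.9. The TPM ranges of Apcdd1, Axin2 and Nkd1 overlapped between neighbours in both groups, and Tcf7, Notum, Wif1 and Lef1 lay below 0.3 TPM. OL values cannot be set against OPC values gene by gene.

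The wider pathway was described by 102 other genes in 8 lists. None of them passed an adjusted p of 0.05 in either stage with edgeR, where 0.0678% of all fitted genes did in OPCs and 0.296% in OLs. In OPCs 69 were fitted, of which 1 was higher and 7 lower at an unadjusted edgeR p under 0.05. Both directions together lay near the 11.9% of all genes at that level. Of all 13271 genes, 739 were higher and 840 lower. The median log2 fold change was -0.08, against -0.00 over all genes. In OLs 74 were fitted, of which 2 were higher and 8 lower at that level. Both directions together lay near the 11.6% of all genes. Of all 15193 genes, 887 were higher and 870 (5.73%) lower. The median was -0.03, against 0.02 over all genes. In both stages the listed genes at that level leaned to lower more than all genes did, which was not tested. Another 12 of the 102 in OPCs and 7 in OLs were listed at 0 in every library.

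The genes named next had the highest control TPM of their list in the stage given, a rank that in OLs rests on division by genomic span; their levels are given in CPM, in which other genes of a list could stand higher. Of the 19 Wnt ligand genes 4 were fitted in OPCs and 8 in OLs. Wnt7b led by TPM in OPCs, at 89.2 ± 18.1 CPM in SRF-KO (SD, n = 3) and 84.4 ± 4.79 CPM in control OPCs (SD, n = 4), with an edgeR adjusted p of 0.85. Wnt7a led by TPM in OLs, at 36.7 ± 7.00 CPM in SRF-KO and 36.2 ± 1.32 CPM in control OLs (SD, n = 4 each; edgeR adjusted p 0.975), where Wnt7b had more CPM (51.5 in SRF-KO and 60.4 in control OLs). Both ligands are known from neural tissue, where they act on brain endothelium. Of the genes for Wnt release, Wls, the transporter that carries Wnt proteins to the surface, stood at 68.1 ± 7.49 CPM in SRF-KO and 65.0 ± 3.90 CPM in control OPCs. Porcn, the enzyme that attaches the lipid, led by TPM in OLs at 25.0 ± 1.57 CPM in SRF-KO and 28.3 ± 3.84 CPM in control OLs, while Wls had more CPM there (97.3 in SRF-KO and 91.4 in control OLs).

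Among the 18 receptor genes Fzd9 had the highest control TPM in both stages, while Fzd3 had more CPM in both (67.8 in SRF-KO and 81.4 in control OPCs, 85.3 in SRF-KO and 80.8 in control OLs). Fzd9 averaged 54.8 ± 14.9 CPM in SRF-KO and 57.7 ± 2.28 CPM in control OPCs, and 39.3 ± 1.89 CPM in SRF-KO and 53.1 ± 7.14 CPM in control OLs, where the log2 fold change was -0.43 and the edgeR adjusted p 0.245. Of the R-spondin axis, Znrf3, a ubiquitin ligase that removes Frizzled from the surface and is itself a feedback gene, averaged 35.4 ± 5.07 CPM in SRF-KO and 36.9 ± 2.22 CPM in control OPCs. In OLs it averaged 19.5 ± 8.61 CPM in SRF-KO and 25.3 ± 4.16 CPM in control libraries, with an edgeR adjusted p of 0.69.

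Relatives of Sfrp5 were among the 15 other antagonists. Sfrp2 led these by TPM in OPCs, at 24.5 ± 0.905 CPM in SRF-KO (SD, n = 3) and 29.0 ± 2.53 CPM in control OPCs (SD, n = 4), with a log2 fold change of -0.24 and an edgeR adjusted p of 0.455. In CPM Draxin stood higher there, at 53.6 in SRF-KO and 54.3 in control OPCs. Sfrp1 led by TPM in OLs, at 37.5 ± 6.30 CPM in SRF-KO and 49.5 ± 5.71 CPM in control OLs (SD, n = 4 each). Its log2 fold change of -0.39 had an edgeR adjusted p of 0.362.

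Within the destruction complex and cytoplasmic relay Ctnnb1, the gene of beta-catenin, averaged 535 ± 54.0 CPM in SRF-KO and 569 ± 25.3 CPM in control OPCs, and 535 ± 163 CPM in SRF-KO and 606 ± 53.8 CPM in control OLs. Among nuclear partners Tcf7l2 averaged 73.3 ± 4.65 CPM in SRF-KO and 71.2 ± 3.27 CPM in control OPCs. Pygo2, a cofactor of beta-catenin, averaged 31.0 ± 7.21 CPM in SRF-KO and 36.6 ± 2.69 CPM in control OLs. Ccnd1, the cyclin D1 gene, averaged 2100 ± 243 CPM in SRF-KO and 2160 ± 86.6 CPM in control OPCs, and 164 ± 31.0 CPM in SRF-KO and 132 ± 10.5 CPM in control OLs, where the edgeR adjusted p was 0.53.

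The smallest p-values of these lists in OLs, noted after the values were seen, belonged to Cd44 and Tcf7l2. Cd44, a cell surface receptor for hyaluronan listed here as a target gene, stood at 504, 431, 240 and 326 CPM in SRF-KO OLs and at 1020, 861, 1360 and 661 CPM in control OLs. The groups did not overlap, which held for 8.01% of all genes fitted in OLs. The log2 fold change of Cd44 was -1.38 ± 0.27 (SE) with an edgeR adjusted p of 0.0694. Tcf7l2 stood at 156, 165, 143 and 148 CPM in SRF-KO OLs and at 224, 234, 226 and 233 CPM in control OLs, also without overlap, with a log2 fold change of -0.58 ± 0.13 (SE) and an edgeR adjusted p of 0.122. Both passed with DESeq2 (adjusted p 0.000125 for Cd44 and 1.71e-07 for Tcf7l2). DESeq2 called 299 of all 15193 genes fitted in OLs and 2 of the 74 genes of these lists. Without SRF-KO OL replicate 4, where edgeR called 4.12% of all genes, it called 5 genes of these lists: Cd44, Tcf7l2 and Tcf7l1 lower, Tnfrsf19 and Ccnd1 higher. Tcf7l2 is also known as a gene of differentiating OLs. Both Tcf7l2 and the summed newly formed OL markers were lower in SRF-KO than in control OLs, and the part of the one in the other was not tested.

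**Figure D4:**
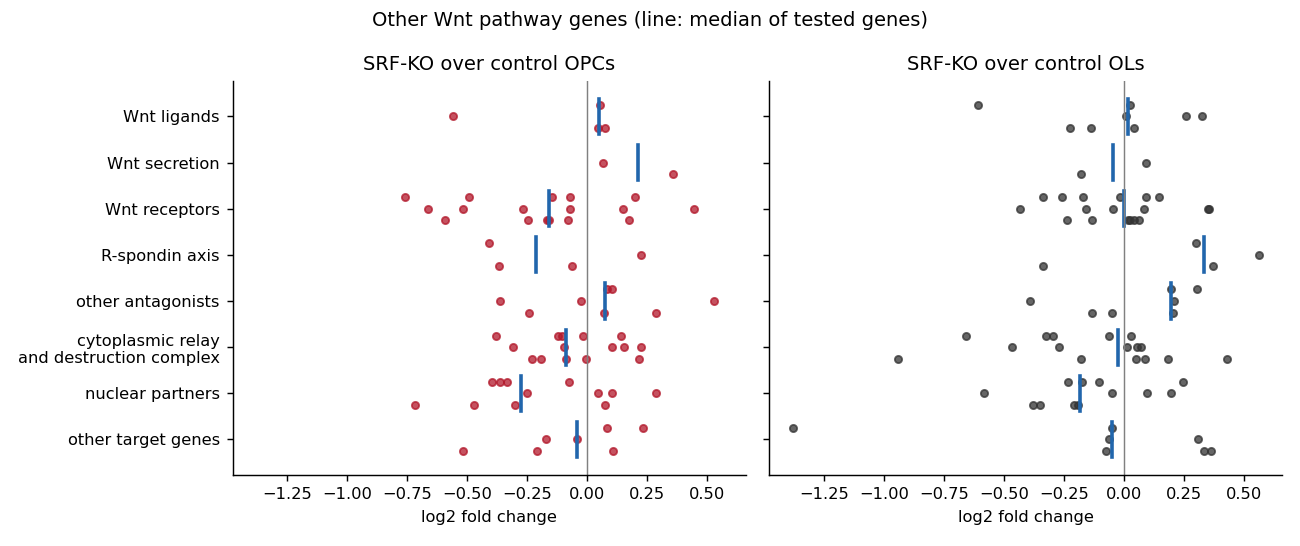
Log2 fold change of SRF-KO over control (x axis, log2 scale) in OPCs (left) and OLs (right) for every fitted gene of the 8 other Wnt pathway lists (rows); points are genes and blue lines the median of each list. The list medians lie between -0.28 and 0.33, and the lowest point, in OLs, is Cd44 at -1.38.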

How the data were processed

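Expression was measured by single-end RNA sequencing of 15 libraries of cultured mouse cells. The deposited tables hold expected counts and TPM per gene, which the authors made with tools that the submitters' processing notes name as bcl2fastq, STAR and RSEM; their versions, and which of the builds named there (GRCm38 and Rnor_6.0) was used for which library, are not given in the sources used here. In OPC files 8.33 to 9.78% of expected counts were not whole (tolerance 1e-06) and in OL files 24.3 to 33.9%; all were rounded. Each gene ID is paired with a symbol in the files for 45143 of 45706 IDs. Groups followed the sample titles; the treatment label of the SRF-KO OLs names the Cre lentivirus but ends in the word control.

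Each stage was fitted on its own with edgeR 4.0.16 in R 4.3.3 (filterByExpr, TMM, quasi-likelihood test, Benjamini-Hochberg adjustment over all genes fitted, threshold 0.05); the procedure was tested on simulated data. SE was taken as the size of the log2 fold change over the root of its F statistic. DESeq2 1.42.0, other scalings, no filter, a replicate block and leaving out each library were alternatives. Same-numbered libraries deviated from their group means with correlations of -0.0142 to 0.198 in OPCs and -0.44 to -0.00608 in OLs, so numbers were not taken as pairs. Differently numbered OL libraries reached -0.436 (SRF-KO replicate 1 with control replicate 2) and 0.473 (SRF-KO replicate 4 with control replicate 2). The cause of this shared variation was not tested. No 2 libraries of a group agreed within sampling noise (chi-square per gene of at least 4.54).

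Named besides the 8 genes are Srf, the most abundant fitted gene of each pathway list by control TPM, and the 5 genes most like Sfrp5 in OLs by Pearson r of log2 CPM (prior count 2, average log2 CPM of at least 3), of which 1 is not reported here. The 8 genes and all lists were chosen with earlier results of these data known. Gene positions are from GENCODE M21 on GRCm38, and start windows from RefSeq on GRCm38.p6.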

Additional observations from a re-analysis of the deposited data

Results flagged for a closer look

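Among 21 groups of 4 libraries checked over the 8 genes, 2 values stood apart from the other 3 libraries of their group by more than the 95% limit of Dixon's test. Chance flags about 1 in 20 such groups. Axin2 in control OPC replicate 2 was at 3.1 CPM, with the other control OPC libraries at 2.31 to 2.41 CPM. Nkd1 in control OPC replicate 3 was at 187 CPM, with the others at 203 to 206 CPM.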

How the results depend on the processing

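In OPCs no member and no other pathway gene with an adjusted p passed under any of the 12 alternatives (DESeq2 gave none for Wif1 and Apcdd1), and Wif1 (0.71 to 1.18), Axin2 (0.52 to 0.68), Nkd1 (-0.13 to -0.06) and Tcf7 (-2.08 to -1.27) kept the sign of their log2 fold change. Apcdd1 in OPCs ranged from -0.0555 to 0.33 with 1 library left out; it was -0.00234 without control OPC replicate 2 and -0.0555 without control OPC replicate 3. The count of all genes called in OPCs was 9 in the fit reported, 139 with DESeq2, 101 without a filter on low counts, 2 with the replicate block, and 1 to 4 with 1 library left out. In OLs it was 45 in the fit reported (10 higher, 35 lower), 299 with DESeq2, 74 with library totals (39 higher, 35 lower), 129 without a filter, 5 with the replicate block, and 7 to 636 with 1 library left out. The 636 came without SRF-KO OL replicate 4, and 71 without control OL replicate 4; leaving out control OL replicates 1, 2 and 3 gave 14, 8 and 8, and SRF-KO OL replicates 1, 2 and 3 gave 33, 7 and 8. Library totals moved the median log2 fold change of all OL genes to 0.24, against 0.02. Other pathway genes called in OLs numbered 0 in the fit reported, 2 with DESeq2, 1 without a filter, and 0 to 5 with 1 library left out. The Sfrp5 log2 fold change in OLs was -1.02 with library totals and -1.45 to -1.13 with 1 library left out. Axin2 in OLs was 0.19 with library totals, 0.21 without SRF-KO OL replicate 3 and -0.35 without SRF-KO OL replicate 4. The cause of these shifts was not tested. Depth limits Wif1, Notum, Lef1, Axin2 and Tcf7, which had at most 77 counts in any library.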
